A study of Bombyx mori with 4 samples.

Results

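One array compared silkworm cells in which BmSCM had been silenced with cells that received RNAi against EGFP, and it is 1 of 4 arrays of a study of Polycomb group genes. A gene probe was taken as measured when its spot carried a brightness flag, which required the brighter channel to reach at least 400, and 8310 of the 23229 gene probes were measured on the BmSCM array. The cells were BmN4-SID1, a silkworm line of ovarian origin that expresses a nematode dsRNA channel, so that dsRNA added to the medium enters the cells. BmSCM RNAi cells received dsRNA specific for BmSCM, and the control cells, of the same line, received dsRNA for EGFP, a gene that silkworm cells lack. Both were grown at 27 °C in IPL-41 medium with 10% fetal bovine serum and harvested after 7 days, and material of 3 experiments was pooled into one sample before RNA isolation. BmSCM RNAi was labelled with Cy5 and EGFP RNAi with Cy3, without an array on which the dyes were exchanged. The other arrays set BmPHO, BmESC and BmSCE RNAi against EGFP RNAi in the same way, so all 4 share their control treatment. With 1 array per knockdown there is no spread between replicates and no p-value, and a rise or a fall means a log2 ratio of knockdown over EGFP RNAi beyond 1 or -1, which is the 2.0-fold threshold of the study.

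Polycomb group proteins keep developmental genes silent by acting on chromatin, and were first found through the homeotic genes of Drosophila. Sex comb on midleg (Scm) carries MBT repeats, which bind methylated lysines, and a SAM domain, through which it binds other Polycomb proteins such as polyhomeotic. In Drosophila, Scm copurifies with Polycomb repressive complex 1 in part, and its loss releases homeotic genes. Pho is the sequence-specific DNA-binding member of the group, Esc is a subunit of the H3K27 methyltransferase complex, and Sce is the ring finger E3 ligase for histone H2A.

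The dsRNA against BmSCM was made from a stretch of the gene bounded by the following pair of primers, shown because they define the RNA that was silenced. They are written 5′ to 3′ in lower case with no base marked.
BmSCM RNAi sense: agttggcctatgtttttgct
BmSCM RNAi antisense: gctcttgtcaatctttgagg
The array cannot follow that RNA. The single Scm probe (sw13820, named after a frog protein) had intensities of 34 in BmSCM RNAi and 71 in EGFP RNAi, below the flag, and it was not measured on the other 3 arrays either. Whether the target was lost in these cells can therefore not be read from the array values. The study itself reported, from RT-PCR on these cells, that BmSCM expression was reduced after its dsRNA.

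Probe sequences are given in the files for 100 of the gene probes, of which 10 were measured here, 3 of them risen and 1 fallen. The 3 of these 4 with both channels at or above 400 are shown as the actual oligonucleotides behind a ratio, 5′ to 3′, with no base marked.
2th_019: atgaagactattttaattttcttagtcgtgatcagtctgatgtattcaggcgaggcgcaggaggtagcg
2th_013: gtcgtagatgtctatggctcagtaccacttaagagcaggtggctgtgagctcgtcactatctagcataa
2th_042: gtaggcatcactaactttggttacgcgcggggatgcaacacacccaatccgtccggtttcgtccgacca
Probe 2th_019 had an intensity of 3045 in BmSCM RNAi and 936 in EGFP RNAi, a log2 ratio of 1.38, against 1.25, 0.10 and 0.04 in BmPHO, BmESC and BmSCE RNAi. Probe 2th_013 had 20130 and 9138, a ratio of 1.18 in BmSCM RNAi, against 1.34, 0.20 and 0.03 in the same 3 knockdowns. Probe 2th_042 ran the other way, with 1148 in BmSCM RNAi and 2249 in EGFP RNAi, a ratio of -1.30, and -1.24, -0.08 and -0.86 in the others. The files pair these 3 probes with gene model or short symbols only, so no gene name is given.

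On the whole array 786 of the 8310 measured probes rose in BmSCM RNAi (9.46%) and 523 fell (6.29%), and 133 rose and 11 fell more than 4-fold. An EGFP RNAi channel under 400 accompanied 381 of the 786 rises, where the size of the rise is a bound and not a value. Among the 6101 probes with both channels at or above 400, rises and falls were almost equal, at 405 (6.64%) and 389 (6.38%). The split also depends on how the dyes were balanced, and the share of rises among all calls was 60.0% with the loess curve. Centring on the median in its place gave 1519 rises and 266 falls (85.1% rises) and moved the median ratio of all measured probes to 0.31 from 0.07, and a loess curve fitted to bright probes alone gave 1515 and 340 (81.7%) with a median of 0.25. Among the 1662 dimmest measured probes 13.9% rose and 5.5% fell, against 7.8% and 3.1% among the 1662 brightest. The loess curve lowered the ratios by a median of 0.65 among those dimmest probes and by 0.06 among the brightest. The other arrays had 11.8% rises and 7.84% falls in BmPHO RNAi, 4.46% and 3.25% in BmESC RNAi, and 2.43% and 1.10% in BmSCE RNAi. With both channels at or above 400 these shares were 7.59% and 6.58%, 3.31% and 3.17%, and 1.67% and 0.82% in the same order.

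**Figure D1:**
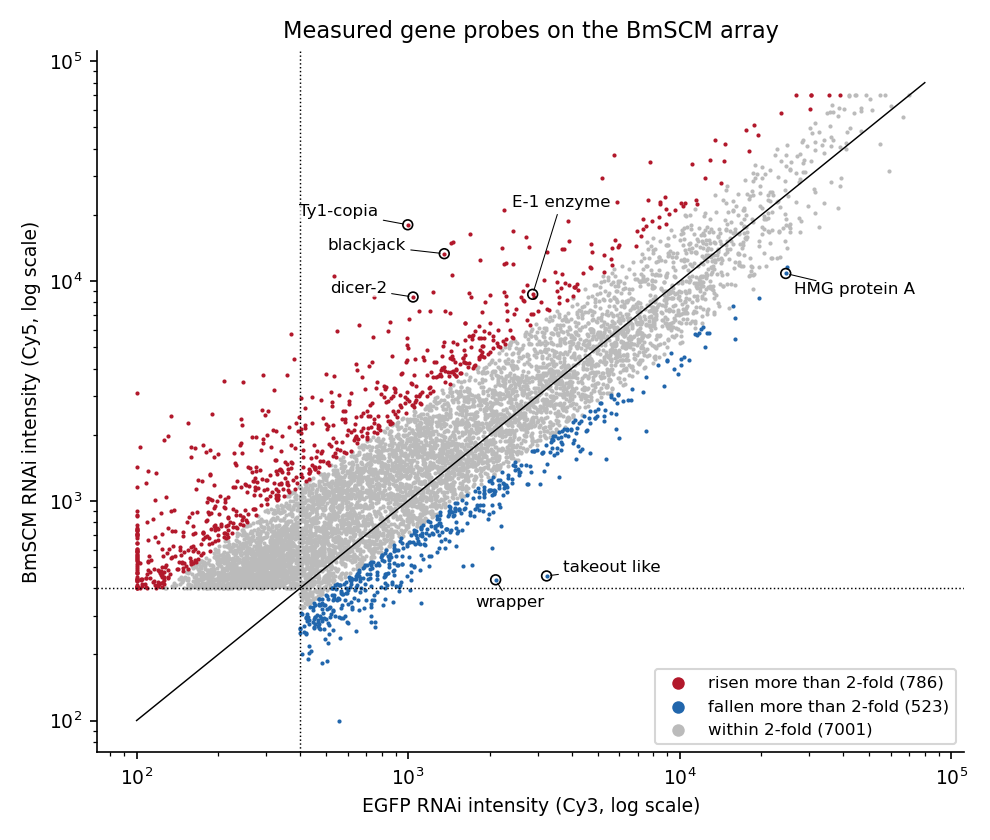
Intensity of each measured gene probe in BmSCM RNAi (Cy5, vertical, log scale) against EGFP RNAi (Cy3, horizontal, log scale), both before the dyes were balanced, with values under 100 drawn at 100. Red probes rose and blue probes fell more than 2-fold after loess, dotted lines mark an intensity of 400, and circles mark 7 named probes; the 381 rises left of the vertical dotted line have a dim EGFP RNAi channel.

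Repeat spots show the spread between spots of one hybridization, and leave out any error of RNA pooling, labelling and dye. The 5 silkworm control probes, printed 49 times each, had SDs of 0.07 to 0.10 in log2 ratio on the BmSCM array, with means between -1.14 and 0.88. Their median intensities in BmSCM RNAi were 5010 to 48646, so these SDs do not cover dim probes. Different probes of one gene spread wider: 89 genes with a silkworm record had more than 1 measured probe, with a median range of 0.35 between them, and 10 of the 89 had a range over 1. Laminin, a basement membrane protein named here after its values were seen, was the widest of them, with -0.18 and 3.30 from its 2 probes. None of the 89 had probes called in both directions, but of the 29 genes with any call only 4 had all their probes called the same way. The 8 yeast RNAs used as spike-in controls had mean ratios between 1.87 and 4.68 on this array (median 3.21), against medians of 3.98 in BmPHO, 1.14 in BmESC and 1.14 in BmSCE RNAi. The medians of the 48 print blocks lay between -0.17 and 0.52. The Cy5 intensity of 13 probes lay within 1% of the array's highest value of 70100. Their ratio is a lower bound only where the EGFP RNAi channel lay below that ceiling. The highest geometric mean of the channels of a measured probe was 70070, so both can be at the ceiling, and the ratio then has no meaning. The part that spike-in amounts, print blocks or saturation had in the calls was not tested.

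Most of the highest named rises were repeated elements or had matches that are not insect genes. Where names rest on a protein of another species they are called matches here. Both channels of each probe given with both intensities in the next paragraphs reached 400 unless said otherwise. A further probe given by its ratio alone can have a channel under 400, and its ratio is then a bound. A match to a Ty1-copia retrotransposon protein (sw22765) had the highest ratio among named probes with both channels at or above 400, with an intensity of 18039 in BmSCM RNAi and 997 in EGFP RNAi, a log2 ratio of 4.05. Its ratio was 4.40 in BmPHO RNAi, 1.27 in BmESC RNAi and -0.19 in BmSCE RNAi. A silkworm record for the open reading frames of a non-LTR retrotransposon (sw08019), an element that copies itself through an RNA intermediate, had 15105 and 1458 and a ratio of 3.26. A match to a reverse transcriptase family member (sw20795) had 21077 and 2262 and a ratio of 3.17. The 3 probes matched to heavy neurofilament polypeptide, an intermediate filament protein of vertebrate neurons, gave 3.27, 3.27 and 2.99 (sw18858, sw22433 and sw18658), and they share one match, so they are not 3 independent genes.

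Protein-coding matches followed. A match to GTP binding protein 2 (sw21987) had an intensity of 16453 in BmSCM RNAi and 1690 in EGFP RNAi, a ratio of 3.19, and stood past 2-fold on every array, at 3.07 in BmPHO, 2.75 in BmESC and 1.91 in BmSCE RNAi. Blackjack (sw09197, a grasshopper match) had 13324 and 1359 and a ratio of 3.17. Dicer-2, the nuclease that cuts long dsRNA into small interfering RNAs, rose on 2 of its 4 measured probes. These had 8462 in BmSCM RNAi against 1043 in EGFP RNAi (2.83, sw09354) and 3134 against 518 (2.20, sw09480). The others gave 0.68 (sw13008, with a channel under 400) and 0.33 (sw01076). Both cultures had received dsRNA. Cytoplasmic protein 89BC (sw12041) had 8935 and 1236, a ratio of 2.69, and 3.40 in BmPHO RNAi. A match to heat shock protein cognate 71 (sw12462), a chaperone of the Hsp70 family, had 12410 and 1839, a ratio of 2.65, and a second probe of that name (sw09458) gave 0.90.

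**Figure D2:**
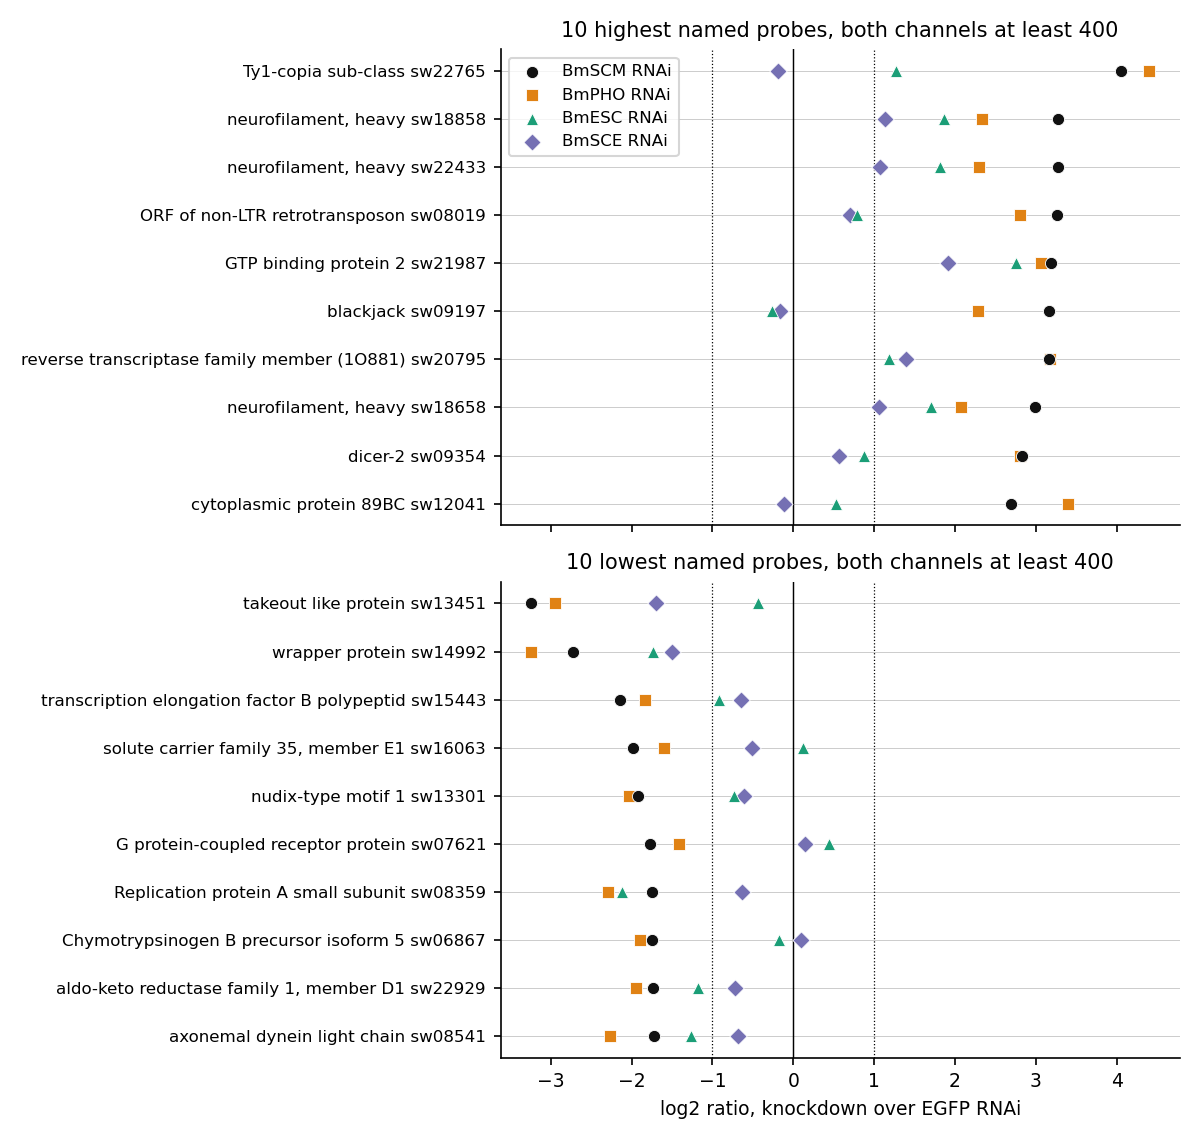
Log2 ratio over EGFP RNAi of the 10 highest (upper panel) and 10 lowest (lower panel) named probes of the BmSCM array with both channels at or above 400, on all 4 arrays, 1 point per array. Dotted lines mark 2-fold; the BmSCM points run from 2.69 to 4.05 in the upper panel and from -3.24 to -1.72 in the lower one.

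The lowest named ratio belonged to a match to a takeout like protein (sw13451), one of a family of small secreted carriers of hydrophobic ligands, with an intensity of 455 in BmSCM RNAi and 3236 in EGFP RNAi, a log2 ratio of -3.24. It gave -2.95 in BmPHO, -0.44 in BmESC and -1.70 in BmSCE RNAi. A match to wrapper (sw14992), a cell surface immunoglobulin protein of Drosophila midline glia, had 437 and 2101, a ratio of -2.73. Elongin C was the next, under its name transcription elongation factor B polypeptide 1 (sw15443), a scaffold of transcription elongation and of some ubiquitin ligases, with 507 and 1592 and a ratio of -2.14. Solute carrier family 35 member E1 (sw16063), a relative of the nucleotide sugar transporters, had 1554 and 5357, a ratio of -1.98. The others among the 10 lowest lay between -1.92 and -1.72, and included the small subunit of replication protein A (sw08359, 1280 against 3602, -1.75), which coats single-stranded DNA. The intensities of these 10 probes in BmSCM RNAi were 414 to 1554, and the 400 limit admitted none below it.

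Beyond the 2-channel rule, a dim EGFP RNAi channel gives a lower limit for the rise. A zinc finger protein match (sw03476, 3732 in BmSCM RNAi) was at least 6.98-fold higher in BmSCM RNAi, although a second probe with the same match (sw20362) gave a ratio of 0.50, and another reverse transcriptase probe (sw19194, 3736) at least 6.85-fold. A BEL12 transposon polyprotein probe (sw02876, 2261) was at least 3.77-fold higher, but of the 6 measured probes of that name 2 rose, and the lowest gave -0.64. Among falls, a probe named cyclic AMP-regulated protein (sw14169) was at least 4.16-fold lower, with 343 in BmSCM RNAi and 1118 in EGFP RNAi. These 4 probes were chosen after their values were seen.

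Across 35 gene lists built from words in the annotation, 2157 measured probes fell into at least 1 list, and 213 of these rose and 150 fell. Lists vary in how many of their probes pass the flag, so each count below stands beside the shares for all measured probes, 9.46% risen and 6.29% fallen, or, for bright probes, 6.64% and 6.38%. No list is set apart by a test.

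Repeated elements were the largest group with a share of rises above that of all probes. Of 201 measured probes for non-LTR elements, reverse transcriptases and DNA transposons, 42 rose (20.9%) and 9 fell (4.48%), with a median of 0.45, and among the 133 with both channels bright 21 rose (15.8%) and 6 fell (4.51%). LTR retrotransposons, which carry long terminal repeats, had 10 rises (23.3%) and 1 fall in 43 probes, and 7 of 27 bright ones rose (25.9%). The silkworm record for the non-LTR element named above was hit by 13 measured probes, all with ratios above 0, from 0.48 to 3.26 (median 1.15), of which 7 rose. Of these rises, sw07347 and sw17719 had a dim EGFP RNAi channel, at 70 and 183. Their bounds, at least 1.17-fold and 1.67-fold, do not reach 2-fold. Of 2 of the 13 probes chosen after their values were seen, the second highest with both channels bright, sw21444, had 2699 in BmSCM RNAi and 525 in EGFP RNAi, a ratio of 1.95. The lowest, sw19118, had 1585 and 848, a ratio of 0.48. Not every name leaned this way: the 55 measured probes named reverse transcriptase had 6 rises and 3 falls, with a median of 0.11. A blastopia polyprotein match (sw19634), from an LTR element of the fly, had 29366 and 5198, a ratio of 2.52, and 1.89, 0.67 and 0.21 in BmPHO, BmESC and BmSCE RNAi. It was the highest of 6 measured blastopia probes, which ran from -0.92 (median 0.67) and of which 2 rose. A probe for the endonuclease of TRAS1 (sw18973), a silkworm element that inserts into telomeric repeats, had 8812 and 1671, a ratio of 2.26, against 1.55, 0.86 and 0.86. A probe for an RNase H and integrase-like protein (sw12553), chosen after its value was seen, had 3920 and 650 and a ratio of 2.26, against 1.42, 0.35 and 0.14, and a second probe (sw10461) gave 1.16. Copies of one element share sequence, so these probes do not tell single insertions apart.

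Chromatin genes moved in part. Of 24 measured trithorax group and remodelling probes 4 rose (16.7%), 0 fell, and 18 had ratios above 0 (median 0.40). They included a bromodomain-containing protein match (sw16737, 4271 in BmSCM RNAi and 1268 in EGFP RNAi, 1.51) and a match to trithorax itself, the histone methyltransferase that works against Polycomb silencing (sw14974, 1850 and 544, 1.31). Only 2 of the 4 rises had both channels bright. Of 17 histone modifier probes 1 rose and 1 fell. A match to jumonji domain containing 1B (sw08986), a histone demethylase, had 2222 and 417, a ratio of 1.95, and histone deacetylase 8 (sw05317) had 731 and 1283, a ratio of -1.28. The words of this list missed another histone demethylase match, retinoblastoma-binding protein 2 (sw12042), which rose to 2.37 and is described below. A histone H2B match (sw18054) had 3347 and 815, a ratio of 1.71, and was higher still in BmESC RNAi, at 2.44. High mobility group protein A (sw14960), a DNA-bending chromatin protein, fell to 10831 in BmSCM RNAi, against 24598 in EGFP RNAi, a ratio of -1.12, and its ratio was -2.77 in BmPHO RNAi.

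Of the 12 Polycomb group probes 5 were measured, and 1 rose. A match to polyhomeotic 3 (sw17606), a subunit of Polycomb repressive complex 1, had 1257 in BmSCM RNAi and 431 in EGFP RNAi, a ratio of 1.01, while a second probe with that name (sw02381) gave -0.02 (1582 and 1245). The pair does not give one direction for the gene. Polycomblike 2 (sw16438), a partner of the H3K27 methyltransferase complex, had 1501 and 622, a ratio of 0.80 that did not pass 2-fold, and -0.34, -0.23 and -0.04 in BmPHO, BmESC and BmSCE RNAi. Enhancer of polycomb (sw07595) gave 0.44, with 926 and 463. Extra sex combs (sw12637) gave -0.68, with 1309 and 1644. Both stayed within 2-fold. The other 7 probes, among them both Suz12 matches, were under the flag, with intensities of 7 to 371 in BmSCM RNAi and 13 to 278 in EGFP RNAi.

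The smaller lists of transcriptional regulators leaned to rises, while the zinc finger list had no settled direction. In the list of bZIP factors and amino acid response, 5 of 14 probes rose (35.7%) and 0 fell, with a median of 0.63, and all 5 had both channels bright. They were led by asparagine synthetase (sw11016), a target of the amino acid response, with 13613 in BmSCM RNAi and 4745 in EGFP RNAi, a ratio of 1.49. It also had 1.48 in BmPHO, 2.02 in BmESC and 0.86 in BmSCE RNAi. The chorion b-ZIP transcription factor (sw18575), a regulator of eggshell genes in the follicle, had 15322 and 5762, a ratio of 1.40, and cAMP responsive element binding protein (sw14332) had 5971 and 2151, a ratio of 1.32. Among 30 probes of the ecdysone response and nuclear receptors, the steroid pathway of moulting, 5 rose (16.7%) and 2 fell (6.67%). Ecdysone receptor (sw18055) had 1647 and 478 and a ratio of 1.30 on one probe. Its other probe (sw17770), with a channel under 400, gave 0.64, within 2-fold. The early response receptor E75 (sw11067) had 3146 and 1232 and a ratio of 1.07, below its 1.57, 1.70 and 1.50 on the other arrays. The enzyme that completes hormone synthesis, ecdysone 20-hydroxylase (sw16581), was opposite, with 873 and 1986, a ratio of -1.57. A second probe (sw01790), with a channel under 400, gave -0.97. Only 2 of those 5 rises had both channels bright.

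Of 28 homeobox, bHLH and forkhead probes 4 rose (14.3%) and 1 fell, with a median of 0.55, and 2 of 17 bright ones rose (11.8%). Abdominal-B (sw05758, a beetle match), the posterior Hox gene and a classical Polycomb target in Drosophila, had 4261 in BmSCM RNAi and 1612 in EGFP RNAi, a ratio of 1.19, against 1.18 in BmPHO, 0.61 in BmESC and 0.50 in BmSCE RNAi. Its second probe (sw08418) stayed within 2-fold, at 0.71. A match to ladybird early (sw12515), a homeodomain factor of heart and muscle, had 2476 and 894, a ratio of 1.12. Forkhead box K1 (sw15291) fell to 716, against 1514 in EGFP RNAi, a ratio of -1.53. Zinc finger proteins had 19 rises (14.0%) and 7 falls (5.15%) among 136 probes and, with both channels bright, 9 rises (9.18%) among 98. Both probes for Gfi-1, a repressor of haematopoietic genes in vertebrates, rose: sw14475 had 5494 and 990 (2.23) and sw08248 had 2133 and 501 (1.64). The median of the zinc finger list was 0.14, and -0.06 among bright probes, so the list has no settled direction.

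Kinases had a share of rises above that of all probes, and closer to it among bright probes. Protein kinases and phosphatases had 19 rises (17.3%) and 9 falls (8.18%) in 110 probes, but 6 rises and 7 falls (9.33%) among the 75 bright ones, where 6.64% and 6.38% of all probes rose and fell, with a median of 0.16 over all and -0.12 over the bright ones. Calcium/calmodulin-dependent protein kinase II (sw03660), a mediator of calcium signals, had 2735 in BmSCM RNAi and 726 in EGFP RNAi, a ratio of 1.55. The serine/threonine kinase PAK homolog (sw07017), an effector of Rac and Cdc42, had 3399 and 1036, a ratio of 1.42, and 0.71, 0.78 and 0.17 on the BmPHO, BmESC and BmSCE arrays, while its second probe (sw04071) gave 0.74 in BmSCM RNAi. Carbohydrate and fatty acid enzymes had 16 rises (9.09%) and 8 falls (4.55%) among 176 probes. In gluconeogenesis, mitochondrial phosphoenolpyruvate carboxykinase (sw19873), the entry enzyme, had 18786 and 3891, a ratio of 2.25, and 3.24 in BmPHO RNAi. Fructose-1,6-bisphosphatase (sw04448), a later step of the same pathway, had 514 and 951 and a ratio of -1.44, so 2 enzymes of one pathway stood past 2-fold in opposite directions. Transketolase (sw00306), of the pentose phosphate pathway, had 2838 and 606, a ratio of 1.84, against 1.67, -0.07 and -0.37 in BmPHO, BmESC and BmSCE RNAi. A second transketolase probe (sw11197) stayed within 2-fold, at 0.55.

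Of the lists with at least 10 measured probes, the proteasome had the largest share of falls. All 29 measured probes had ratios below 0, from -1.39 to -0.12 (median -0.74), with both channels bright, and 5 fell (17.2%, against 6.29% of all measured probes) while 0 rose. Under median centring 28 of the 29 stayed below 0. The zeta subunit of the catalytic core (sw08226) had 556 in BmSCM RNAi and 1005 in EGFP RNAi, a ratio of -1.39. Non-ATPase subunit 12 of the regulatory particle (sw11026) had 2318 and 5254, a ratio of -1.34. On the 29 probes, which all 4 arrays measured, the medians were -0.74 in BmSCM, -0.72 in BmPHO, -0.61 in BmESC and -0.37 in BmSCE RNAi, each against the same control treatment. Ubiquitin conjugation, which marks proteins for the proteasome, had 11 falls (11.7%) and 6 rises (6.38%) in 94 probes, but 4 of each among 70 bright ones (5.71%).

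Genes of proliferation lay lower than the rest as medians, with few calls. The list of cell cycle, mitotic kinases and spindle had 8 falls (12.3%) and 3 rises (4.62%) among 65 probes (median -0.37), with 5 falls among 54 bright ones (9.26%). They included SMC2 (sw08285, 628 in BmSCM RNAi and 1152 in EGFP RNAi, -1.38), a condensin subunit that compacts mitotic chromosomes, and aurora kinase C (sw04642, 401 and 670, -1.35). The aurora kinase C ratio came to -0.89, within 2-fold, under an alternative processing. The study itself reported that the cell cycle regulators BmCDC25 and BmCYCLINJ were up-regulated after BmSCM RNAi, and that this knockdown had no effect on proliferation. DNA replication and repair had 7 falls (9.86%) and 4 rises (5.63%) among 71 probes (median -0.36), led by the small subunit of replication protein A. A match to the p17 subunit of DNA polymerase epsilon (sw07462) had 940 and 2188, a ratio of -1.58, and the large subunit of ribonucleoside-diphosphate reductase (sw16645), which makes deoxynucleotides, had 723 and 1430, a ratio of -1.44. Splicing and RNA-binding proteins had 7 falls (8.24%) and 2 rises (2.35%) among 85 probes (median -0.33), and their 6 bright falls included RNA binding motif protein 12 (sw17954, 613 and 1368, -1.64).

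Mitochondrial and ribosomal genes moved little as calls. The respiratory chain and mitochondrial ribosome had 6 falls (6.32%) and 0 rises in 95 probes, 75 of them below 0, with a median of -0.41. The O subunit of ATP synthase (sw06908) had 890 in BmSCM RNAi and 1684 in EGFP RNAi, a ratio of -1.32, against -0.84, -0.07 and 0.01 in BmPHO, BmESC and BmSCE RNAi. Cytosolic ribosomal proteins had a median of 0.33 over 90 probes (0.02 with the loess curve from bright probes), 77 of them above 0, with 2 rises and 2 falls. Ribosomal protein L27 (sw14128) was the lowest, with 3774 and 9842 and a ratio of -1.45, but a second L27 probe (sw14386) gave 0.33, so the gene has no single direction. On the 88 ribosomal probes measured on all arrays the medians were 0.33 in BmSCM, 0.23 in BmPHO, 0.15 in BmESC and 0.34 in BmSCE RNAi, and on the 94 common respiratory probes they were -0.42, -0.34, -0.25 and -0.03 in the same order. Over all 6491 common probes they were -0.08, -0.01, 0.02 and 0.00.

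**Figure D3:**
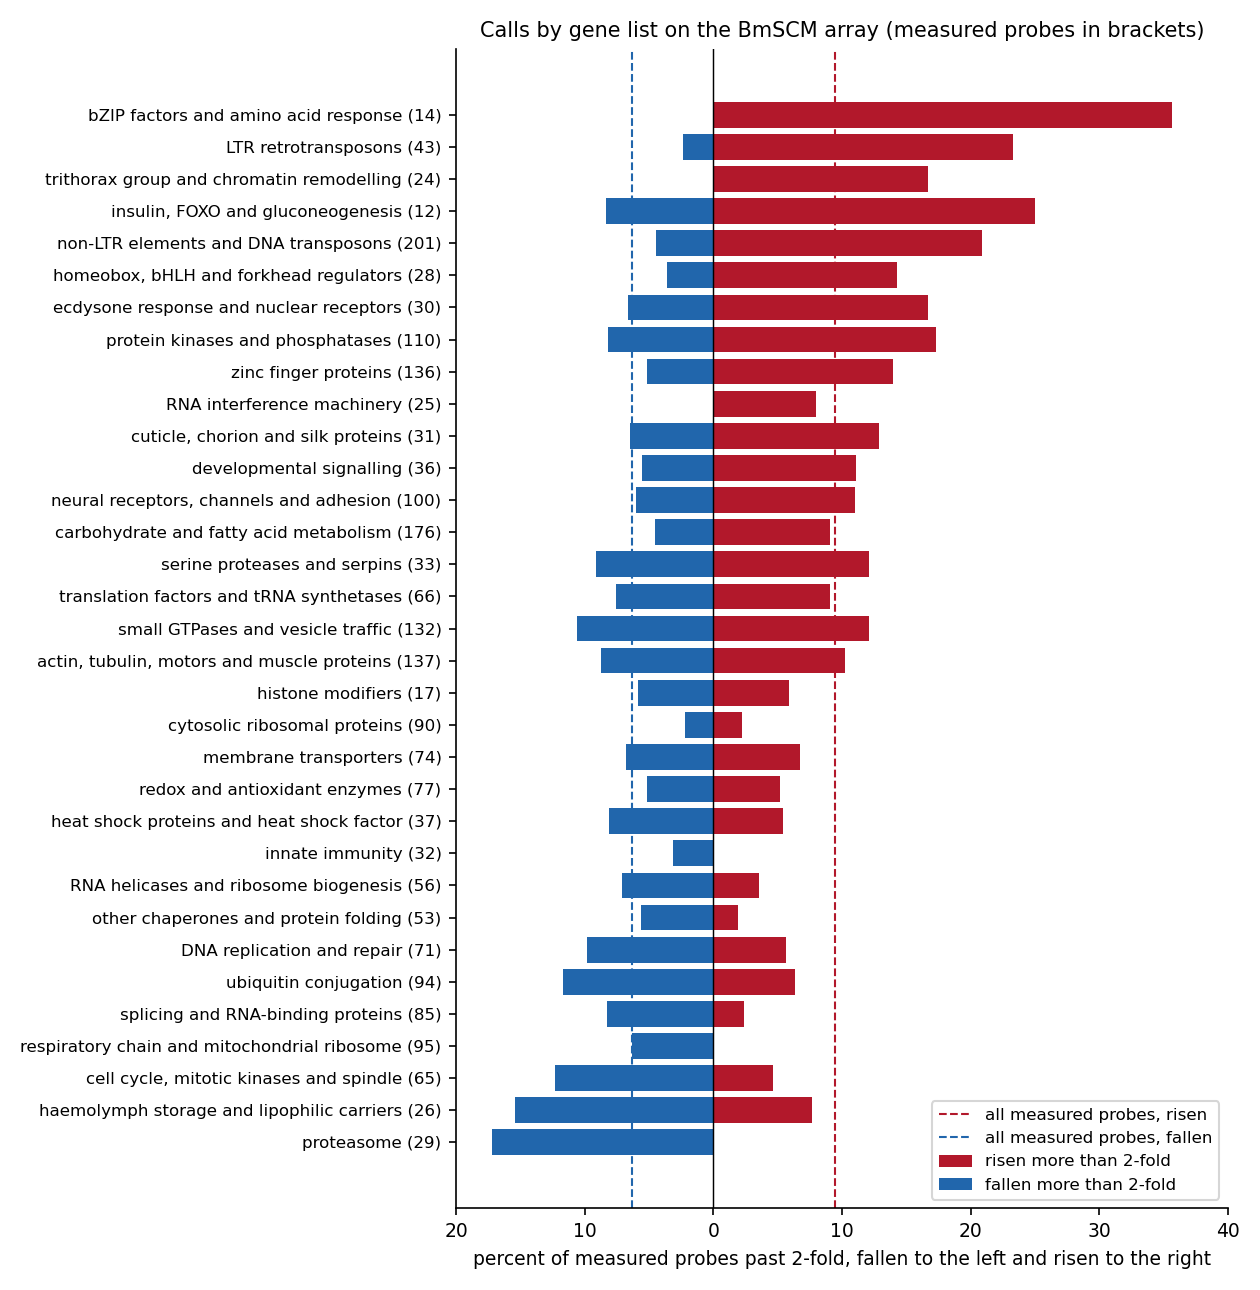
Share of measured probes that rose (red, to the right) or fell (blue, to the left) more than 2-fold on the BmSCM array, in percent, for the lists with at least 10 measured probes, ordered by risen minus fallen. Dashed lines give the shares over all measured probes, 9.46% risen and 6.29% fallen; proteasome has 17.2% fallen, and bZIP factors and amino acid response 35.7% risen.

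Heat shock proteins were mixed, and other chaperones lay lower as a median with few calls. The list of other chaperones and protein folding had 1 rise (1.89%) and 3 falls (5.66%) among 53 probes. Of these, 38 lay below 0 (median -0.37). Of 37 heat shock probes 2 rose and 3 fell, with ratios from -1.19 to 2.65. Heat shock protein hsp20.8 (sw03800), a small chaperone, had 1720 in BmSCM RNAi and 546 in EGFP RNAi, a ratio of 1.19. Its second probe (sw18898), with a channel under 400, gave 0.22. A heat shock cognate probe (sw22917) had 555 and 867, a ratio of -1.19. Apart from dicer-2, the RNA interference machinery had no further rise and no fall among its 25 probes. Innate immunity had 0 rises and 1 fall in 32 probes, prophenoloxidase 2 (sw05534, 644 and 952, -1.08), the zymogen of the melanizing enzyme. Of the serine proteases and serpins, serpin-2 (sw18472), a protease inhibitor, had 2117 and 5832, a ratio of -1.62, and its other 4 probes lay between -1.02 (sw00013) and 0.17 (sw17678). A trypsin-like protease (sw21893) had 19614 and 8364, a ratio of 1.26.

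**Figure D4:**
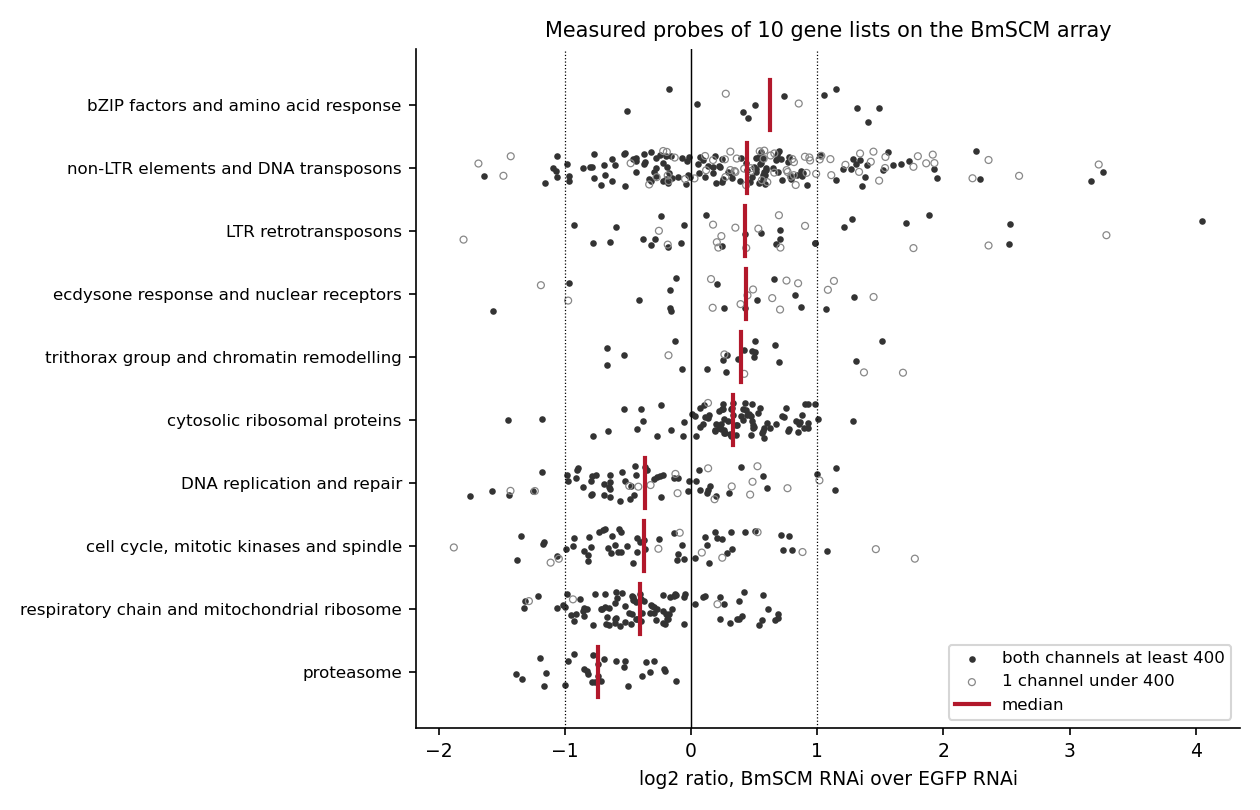
Log2 ratio of BmSCM RNAi over EGFP RNAi for each measured probe of 10 gene lists, with open circles for probes that have 1 channel under 400 and red bars for medians. Dotted lines mark 2-fold; every proteasome probe lies below 0, and the ribosomal protein probes have a median of 0.33.

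Terms that the array's own annotation attaches to probes were counted where at least 15 probes were measured, without a separate count of bright probes. Of all measured probes with a molecular function term, 8.07% rose and 7.05% fell. The shares were 8.06% and 6.6% for biological process terms such as protein transport and DNA replication. They were 4.88% and 7.32% for KEGG pathway terms such as the proteasome. RNA-directed DNA polymerase activity, the reverse transcriptase term, had 16 rises (32.0%) and 1 fall in 50 probes with a median of 0.66, and transcription factor activity had 11 rises (17.7%) and 1 fall (1.61%) in 62. Protein kinase activity had 18 rises (19.1%) and 4 falls (4.26%) in 94 probes. RNA binding had 19 rises (19.6%) and 4 falls (4.12%) in 97 probes with a median of 0.31, opposite in sign to the median of -0.33 in the list of splicing and RNA-binding proteins. The proteasome term had 5 falls and 0 rises in 30 probes, with a median of -0.75. The term for protein transport had 7 falls (20.6%) and 2 rises (5.88%) among 34 probes, and DNA replication had neither a rise nor a fall among 16, with a median of -0.53. These terms share probes with the lists. One probe can also carry several terms, and how far RNA binding overlaps the reverse transcriptase term was not counted.

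BmSCM RNAi was then set against the other 3 knockdowns on the 6491 probes measured on all arrays. Its ratio was the highest of the 4 on 1363 probes and the lowest on 1968. It exceeded the highest other ratio by more than 2-fold on 11 probes (0.169%), 9 of them risen, and lay more than 2-fold below the lowest other on 12 (0.185%), 6 of them fallen. With a margin of 1.5-fold the counts were 77 and 127. Since each array was hybridized once, the margin between 2 arrays has no replicate error.

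The widest margin above the rest was that of a match to E-1 enzyme (sw05288). It had an intensity of 8706 in BmSCM RNAi and 2876 in EGFP RNAi, a ratio of 1.50, whereas its ratio was -0.28 in BmPHO, -0.87 in BmESC and -0.43 in BmSCE RNAi. Its margin of 1.78 stayed between 1.58 and 1.81 under every alternative processing. A match to retinoblastoma-binding protein 2 (sw12042), a demethylase of methylated histone H3 lysine 4, had 4176 and 644, a ratio of 2.37, and 1.35, 0.10 and 1.36 on the other arrays. A second probe of that name (sw21122) gave 0.06, and 0.04, 0.28 and 0.26, so it does not share the margin. A CTCF-like protein match (sw05609), named after the zinc finger factor that binds insulators, had 3664 and 1232, a ratio of 1.31, and 0.31, 0.22 and 0.17. These 2 margins were 1.01 and 1.00, and reached as low as 0.62 and 0.91 under the alternatives, so neither stands apart by 2-fold in all of them.

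A smaller margin was found on one probe of nucleosome assembly protein (sw04271), a histone chaperone with a silkworm record. It had 15741 in BmSCM RNAi and 9038 in EGFP RNAi, a ratio of 0.82, while the others gave -0.07, -0.27 and -0.10. Its other probes did not follow: sw21922 gave -0.05 in BmSCM RNAi and 0.03, 0.25 and 0.48 in BmPHO, BmESC and BmSCE RNAi, and sw21923 gave -0.42 in BmSCM RNAi, with -0.09 in BmSCE RNAi as the highest other. A match to sperm phosphodiesterase 5 (sw14778), which breaks down cyclic GMP, had 9363 and 5091, a ratio of 0.83, and -0.06, -0.25 and -0.44, while a second probe (sw01571) gave 0.40, and 0.46, 0.28 and 0.30. Neither gene passed 2-fold. The 3 neurofilament probes had margins of 0.92 to 0.96 on top of ratios of 1.06 to 2.33 elsewhere. A match to IQGAP1 (sw11961), a scaffold of the actin cortex, was near its control in raw intensity, at 588 and 574, with a ratio of -0.55, and fell on the other arrays, to -1.47, -1.64 and -1.78. One reverse transcriptase probe outside the 2-channel rule (sw19465) was among the 11, at least 3.71-fold higher with 2076 in BmSCM RNAi and 393 in EGFP RNAi, while the others gave 0.54, -0.28 and 0.14. Of the remaining 7 probes among the 11, 1 carried a gene model name, 1 a database entry name and 5 no name.

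**Figure D5:**
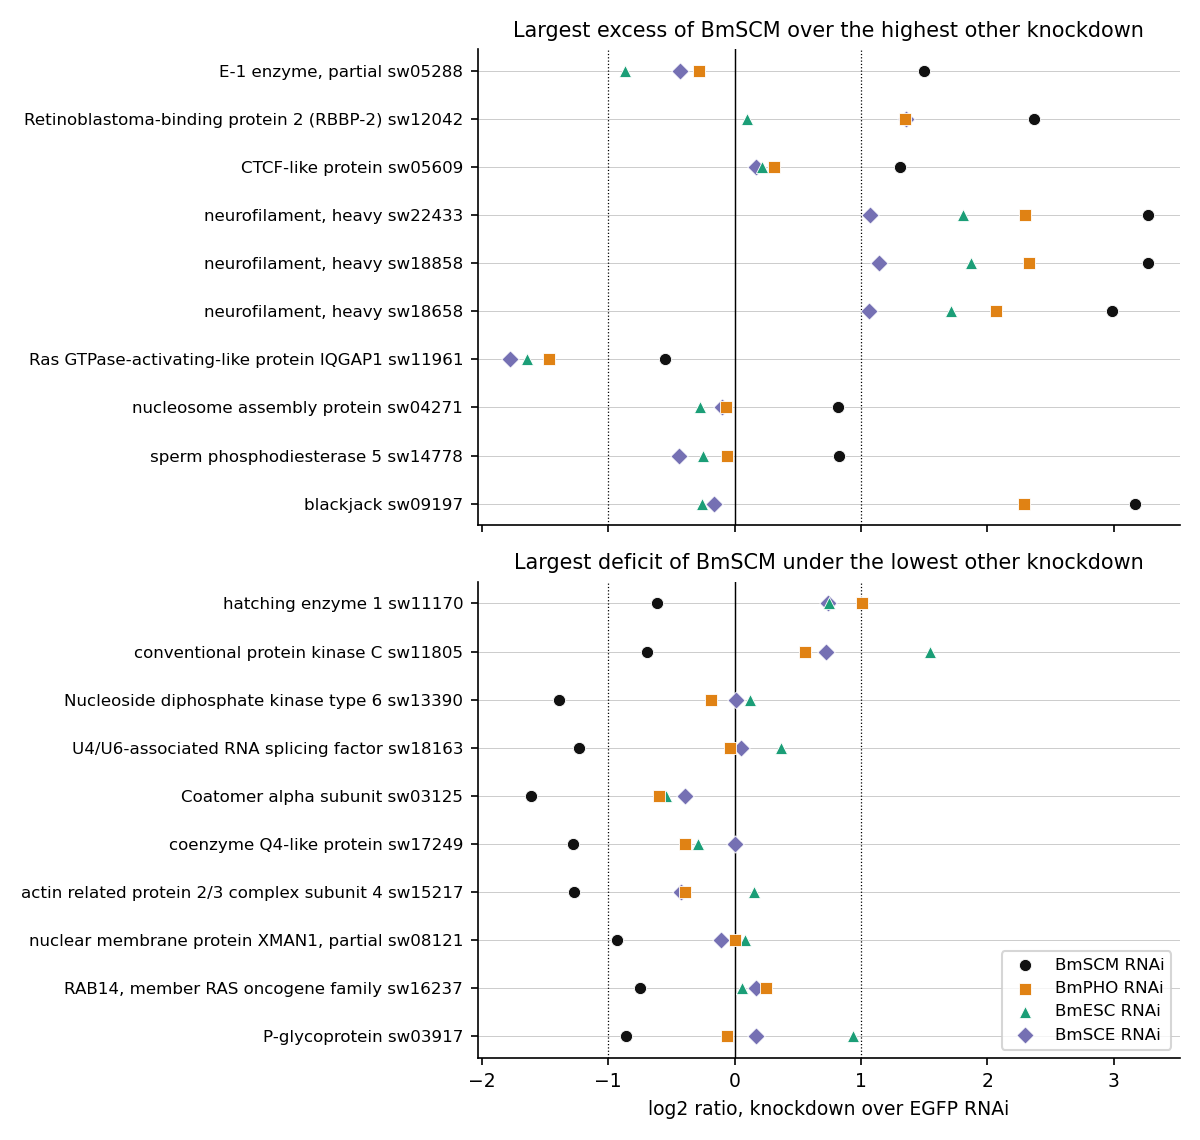
Log2 ratio over EGFP RNAi on all 4 arrays, 1 point per array, for the 10 named probes with the largest excess of BmSCM over the highest other knockdown (upper panel) and the 10 with the largest deficit under the lowest other (lower panel). Dotted lines mark 2-fold; E-1 enzyme stands at 1.50 in BmSCM RNAi with the others below 0, and hatching enzyme 1 at -0.61 with the others between 0.74 and 1.01.

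The margins below the rest sat on dimmer probes. A match to hatching enzyme 1 (sw11170), a metalloprotease that digests the egg envelope of fish, had 582 in BmSCM RNAi and 591 in EGFP RNAi, a ratio of -0.61 after the dye correction, whereas it had 1.01 in BmPHO, 0.75 in BmESC and 0.74 in BmSCE RNAi. Conventional protein kinase C (sw11805), a calcium- and lipid-activated kinase with a silkworm record, had 957 and 1130, a ratio of -0.69, and 0.56, 1.55 and 0.72 on the other arrays. Neither passed 2-fold itself in BmSCM RNAi. Of the 10 probes chosen for this margin, 5 did. Nucleoside diphosphate kinase type 6 (sw13390), which balances nucleotide pools, had 512 and 913, a ratio of -1.39, against -0.19, 0.12 and 0.01.

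The next was a U4/U6-associated splicing factor (sw18163) with 430 and 667, a ratio of -1.23, against -0.04, 0.37 and 0.05. Coatomer alpha subunit (sw03125), of the coat of Golgi vesicles, had 563 and 1213, a ratio of -1.61, against -0.60, -0.54 and -0.39, while a second probe (sw21111) gave -0.91, and -0.45, -0.82 and -0.40. Subunit 4 of the actin related protein 2/3 complex (sw15217), which nucleates branched actin, had 1103 and 2095, a ratio of -1.27, against -0.39, 0.15 and -0.42, with a margin of -0.85. A coenzyme Q4-like match (sw17249), of ubiquinone synthesis, gave -1.28, with 474 and 769, and a margin of -0.89. RAB14 (sw16237), a GTPase of endosome traffic, had 2279 and 3330 and a ratio of -0.75, against 0.25, 0.06 and 0.17. Only 2 of the 12 probes with a margin over 2-fold kept it when the ratios were centred on the median, which leaves the brightness trend of the dyes in place.

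List medians on the common probes were set beside those of the other arrays, with no test of a difference possible. Histones and HMG proteins, with 4 probes, gave 0.15 in BmSCM RNAi and -0.74 in BmPHO RNAi, with -0.05 in BmSCM RNAi when dim probes were kept. RNA helicases and ribosome biogenesis, with 50, gave -0.26 in BmSCM RNAi, and -0.01, -0.20 and -0.08 in BmPHO, BmESC and BmSCE RNAi. The medians of all common probes were -0.08, -0.01, 0.02 and 0.0 in the same order, so this list lay below its array's median in BmESC RNAi as well. Small GTPases and vesicle traffic, with 109, gave -0.31, and -0.16, -0.18 and -0.13. In that list 14 of the 109 common probes fell in BmSCM RNAi, against 9 in BmPHO, 9 in BmESC and 5 in BmSCE RNAi. Over all 6491 common probes 496, 531, 291 and 70 fell in the same order, so the list counts alone do not show a stronger fall in BmSCM RNAi. Over all probes of the list measured on the BmSCM array 14 fell (10.6%) and 16 rose (12.1%). Bright falls in it numbered 13 of 107 (12.1%, beside 6.38%), and included the Rab-like 3 GTPase (sw05142, 1655 and 4661, -1.70).

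Tissue markers, those of the ovary from which the line came included, were mostly dark on this array. Of 29 ovary and egg marker probes 6 were measured, of 34 fat body probes 8, of 18 haemocyte probes 7, of 10 silk gland probes 3, of 96 midgut probes 11, of 27 muscle probes 13, of 84 epidermis probes 12 and of 23 nervous system probes 6. Their summed intensities were 12343 in BmSCM RNAi and 6906 in EGFP RNAi for ovary and egg, and 39925 and 21231 for midgut, the list with the largest such difference, before the dyes were balanced. Measured probes of these lists rose on 9 occasions and fell on 5, where 9.46% of all measured probes rose and 6.29% fell. The counts are small and were not tested. A chorion protein probe (sw07685) had 1575 and 541, a ratio of 1.06, and 1.07, 0.75 and 0.92 on the other arrays. In RNA of whole cultures, fewer cells of a type and less RNA per cell cannot be told apart.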

How the data were processed

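Two-colour oligonucleotide arrays with 24288 spots compared BmSCM RNAi (Cy5) with EGFP RNAi (Cy3) on 1 array, and 3 sister arrays were read for comparison. The deposited intensities of both channels already had local background subtracted. The deposited ratio of Cy5 over Cy3 was normalized within each array by the authors, with a method and image software not given in the sources used here, and the deposited log2 values are the logarithm of that ratio. A deposited column of the authors' own calls was not used. Intensities under 100 were set to 100, log2 ratios were corrected by loess (span 0.3, limma 3.58.1, R 4.3.3) on gene probes, and other steps used Python 3.11.15. A probe was measured when its flag stood for a brighter channel of at least 400, and a channel under 400 gave only a bound. The loess step was tested on simulated data. No intensity can be turned into a count, so precision is limited by the single array.

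Probes were named by rule: the 10 highest and 10 lowest with both channels at 400 or more, the 10 widest margins above and below the other arrays, up to 4 per gene list past 2-fold, and all Polycomb group probes. The members, the 35 lists and the markers were chosen with earlier results of these data known, and list patterns were trimmed of names caught by accident after values had been seen. Alternatives were median centring, loess within print blocks, loess from bright probes, the ratio of the authors, floors of 50 and 200, both channels at 400, and no filter.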

Additional observations from a re-analysis of the deposited data

Results flagged for a closer look

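On 5 probes BmSCM RNAi passed 2-fold in one direction and another knockdown in the opposite one, and none of these differences was tested. A transposase probe (sw20183) had a log2 ratio of -1.06 in BmSCM RNAi and 1.17 in BmESC RNAi, and a reverse transcriptase probe (sw20840) had -1.43 and 1.19 in the same pair. A probe with a match of unknown role (sw22447) had 3.14 in BmSCM RNAi and -1.01 in BmESC RNAi, and a viral A-type inclusion protein repeat match (sw08759) had 1.54 and -1.02. The unnamed probe sw15098 had 1.38 in BmSCM RNAi and -1.03 in BmSCE RNAi. Outside the gene probes, the yeast spike-in controls had a median ratio of 3.21 on the BmSCM array. Of the 382 blank spots 26 passed the brightness flag.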

How the results depend on the processing

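With 1 array per knockdown no replicate could be left out. No paired analysis was possible because each knockdown has a single array. The 786 rises became 1519 under median centring, 1515 under loess from bright probes and 405 with both channels at 400, and the 523 falls became 266 and 340 under the first 2 of these. The 11 probes above every other knockdown became 24 without a filter, and the 12 below became 2 under median centring, 5 under loess from bright probes, 7 with both channels at 400 and 22 without a filter. All 127 named probes past 2-fold kept their direction under all 8 alternatives. Requiring both channels at 400, or no filter, leaves the ratios as they were, so for these probes that outcome was fixed in advance. Under the alternatives that changed the ratios, 109 to 126 of the 127 stayed past 2-fold. List medians changed sign for heat shock proteins (0.01 under median centring, 0.02 under loess from bright probes), ubiquitin conjugation (0.03 and 0.01) and carbohydrate enzymes (0.13 and 0.07), with both channels at 400 for insulin and gluconeogenesis (-0.31), zinc fingers (-0.06) and kinases (-0.12), and without a filter for histones and HMG proteins (-0.05). Medians near 0 also crossed it, for RNA interference machinery (-0.10, up to 0.35), histone modifiers (-0.04, up to 0.34), haemolymph carriers (-0.10, up to 0.18), actin and tubulin (0.07, down to -0.09) and translation factors (0.03, down to -0.04). The cause was not tested. Dim channels limit the size of 381 rises and 134 falls to a bound.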
